A study of Mus musculus with 4 samples.

Results

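The mouse genome carries a large family of genes named Zfp followed by a number, most of which encode proteins with C2H2 zinc fingers, small folds that hold a zinc ion and read DNA. The genes described here were all protein-coding genes of the GENCODE vM21 annotation whose symbol is Zfp, a number and at most 1 further letter, with Zfp42 and Zfp423 left out. There were 389 of them among 21951 protein-coding genes. The rule itself uses no methylation value, but it was set with earlier results of these data known.

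Many Zfp proteins carry a KRAB domain at the start of the protein, which recruits the corepressor TRIM28 and, through it, enzymes that set repressive histone marks and DNA methylation on transposable elements and imprinted regions. Their genes arose by repeated duplication and lie in tandem clusters, and the finger arrays are usually encoded in a long last exon. DNA methylation at CpG dinucleotides is kept through cell division mainly by DNMT1. A methylated promoter is commonly silent, while methylation inside the body of a gene is common in expressed genes.

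Methylation was read by reduced representation bisulfite sequencing of C3H10T1/2 MSCs, an established mouse mesenchymal stem cell line. Cells were transfected for 48 h with control siRNA (NC) or with siRNA against DNMT1 (siDNMT1), and were then either left uninduced or kept for 3 days in osteoblast (OB) induction medium with ascorbic acid, β-glycerophosphate and dexamethasone. Each of the 4 conditions was 1 library, so no difference between conditions has a replicate check and no test was made. The libraries listed 155398 to 159705 regions each, as the fraction of methylated CpG (the methylation level, from 0 to 1), with 1 value per gene for its promoter, 5′ UTR, exons, introns and 3′ UTR. The study's methods define a promoter as the 2 kb before the transcription start for another step, and the window behind these levels is not stated. The number of reads behind a level is unknown. Methylation levels hold no measure of DNMT1 itself, so the knockdown could not be checked here.

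A promoter level was listed in all 4 libraries for 264 of the 389 genes (67.9%, against 61.9% of all protein-coding genes), an exon level for 275, an intron level for 283, a 5′ UTR level for 226 and a 3′ UTR level for 68. Promoter and exon were listed together for 239 genes, the promoter without the exon for 25, the exon without the promoter for 36, and neither for 89. For 45 genes no region was listed in any library. The 125 genes without a complete promoter entry had fewer CpGs in the 2 kb upstream of their GENCODE start (median 19) than the 264 with one (median 34.5), so promoter levels are known mainly for the CpG-richer genes of the family.

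The stretch just before the start showed how differently the family is built. The 250 bases upstream of the RefSeq start are given below for 5 genes, on GRCm38.p6 and 5′ to 3′ on the strand of the gene, with each CG in capitals. Zfp691 and Zfp316 are genes with an almost unmethylated promoter and a highly methylated exon. Zfp27 and Zfp119b have a methylated promoter, and Zfp280b has the largest promoter difference between siDNMT1 and NC. Genes without a RefSeq start within 100 bases of the GENCODE start were passed over, among them Zfp383 and Zfp9. The 19 promoters with a level of at least 0.5 had a median of 29 CpGs in the 2 kb upstream, and the 179 below 0.1 had 34.
Zfp691: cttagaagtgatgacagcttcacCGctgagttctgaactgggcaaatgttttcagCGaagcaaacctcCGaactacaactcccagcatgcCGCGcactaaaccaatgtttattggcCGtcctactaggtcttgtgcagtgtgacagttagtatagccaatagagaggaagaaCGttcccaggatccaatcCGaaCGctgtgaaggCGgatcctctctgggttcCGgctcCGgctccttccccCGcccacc
Zfp316: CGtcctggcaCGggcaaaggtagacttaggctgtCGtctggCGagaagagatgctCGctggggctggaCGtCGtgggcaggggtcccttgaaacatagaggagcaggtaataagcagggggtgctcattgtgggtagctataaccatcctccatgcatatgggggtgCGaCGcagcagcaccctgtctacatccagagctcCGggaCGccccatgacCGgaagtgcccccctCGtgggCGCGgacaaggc
Zfp27: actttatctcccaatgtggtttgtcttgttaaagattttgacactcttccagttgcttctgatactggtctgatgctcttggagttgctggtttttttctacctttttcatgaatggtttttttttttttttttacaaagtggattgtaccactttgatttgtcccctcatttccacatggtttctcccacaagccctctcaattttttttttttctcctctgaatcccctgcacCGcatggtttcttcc
Zfp119b: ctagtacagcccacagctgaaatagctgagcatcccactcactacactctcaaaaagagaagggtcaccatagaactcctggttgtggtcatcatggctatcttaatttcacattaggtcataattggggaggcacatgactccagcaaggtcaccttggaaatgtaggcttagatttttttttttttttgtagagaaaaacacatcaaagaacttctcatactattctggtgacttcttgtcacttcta
Zfp280b: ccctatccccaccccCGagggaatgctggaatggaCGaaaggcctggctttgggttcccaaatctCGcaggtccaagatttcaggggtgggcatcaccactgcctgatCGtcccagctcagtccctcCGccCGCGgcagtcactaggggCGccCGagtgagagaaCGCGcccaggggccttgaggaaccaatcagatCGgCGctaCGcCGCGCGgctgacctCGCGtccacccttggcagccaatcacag

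These stretches lie at chr4:119174196-119174445 (minus strand) for Zfp691, chr5:143270023-143270272 (minus) for Zfp316, chr7:29906533-29906782 (minus) for Zfp27, chr17:55949501-55949750 (minus) for Zfp119b and chr10:76032362-76032611 (plus) for Zfp280b. They hold 13 CGs for Zfp691, 15 for Zfp316, 1 for Zfp27, 0 for Zfp119b and 19 for Zfp280b. In the whole 2 kb before the GENCODE start Zfp27 has 55 CGs and Zfp119b 20, so almost none of their upstream CGs lie next to the start. The motif CG, which reads the same on both strands, was found in 99.5% of the 389 RefSeq promoter stretches of Zfp genes (321 symbols, some with more than 1 start) and in 92.1% of all 32851 RefSeq promoters, with a median of 11 CGs per 250 bases for Zfp genes and 6 for all. Those 32851 belong to 27025 symbols, more than the 21951 protein-coding genes. In the 2 kb before the GENCODE start the median was 27 CGs for Zfp genes and 29 for protein-coding genes. RefSeq and GENCODE starts lay within 100 bases of each other for 260 of the 321 genes and over 2 kb apart for 25.

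Zfp promoters were mostly unmethylated, and less methylated than promoters of protein-coding genes in general. The mean level over the 4 libraries had a median of 0.0358 over the 264 Zfp promoters (95% interval from order statistics 0.0290 to 0.0455, which covers the spread over genes only) and of 0.102 over 13593 protein-coding promoters. In 179 Zfp promoters (67.8%) the level was below 0.1, against 49.7% of protein-coding promoters, and in 19 (7.20%) it was at least 0.5, against 16.4%. The median differed little between libraries, with 0.0344 in NC uninduced, 0.0372 in siDNMT1 uninduced, 0.0339 in NC OB and 0.0323 in siDNMT1 OB cells.

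Along the gene, 5′ UTRs were lowest and 3′ UTRs highest. The 5′ UTRs had a median of 0.0224 (0.0273 in protein-coding genes), the exons of 0.280 (0.321), the introns of 0.206 (0.394) and the 3′ UTRs of 0.748 (0.668). In the 50 Zfp genes with all 5 entries, the medians were 0.0312 for promoters, 0.0228 for 5′ UTRs, 0.481 for exons, 0.217 for introns and 0.748 for 3′ UTRs. Zfp introns therefore had a lower median than Zfp exons, while in 2809 protein-coding genes with all 5 entries exons and introns had the same median, 0.402. Gene by gene, the intron was at least 0.2 lower than the exon in 68 of 234 Zfp genes (29.1%) and at least 0.2 higher in 33 (14.1%), against 16.2% lower and 21.5% higher in protein-coding genes.

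**Figure D1:**
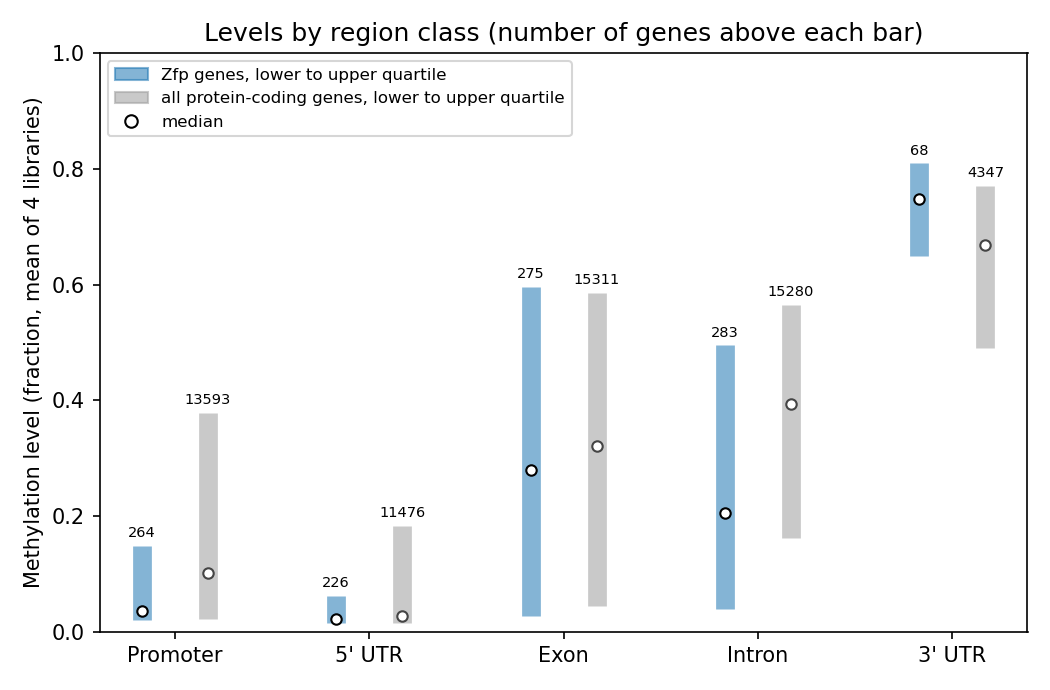
Methylation level (fraction, y axis, mean of 4 libraries) by region class (x axis) for Zfp genes (blue) and all protein-coding genes (grey); bars run from the lower to the upper quartile over genes, circles are medians and the numbers above the bars count genes. Zfp promoters and introns lie lower than those of protein-coding genes (medians 0.0358 against 0.102 and 0.206 against 0.394), and Zfp 3′ UTRs higher (0.748 against 0.668).

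The promoter was compared with the exons of the same gene in the 239 Zfp genes with both. The exon was more methylated in 158 of them, and the median difference, exon minus promoter, was 0.0642 (95% interval 0.0160 to 0.125, over genes), against 0.0348 over 12652 protein-coding genes. In 92 Zfp genes (38.5%) the exon level was at least 0.2 above the promoter level, against 28.3% of protein-coding genes. The reverse, a promoter at least 0.2 above the exon, held for 8 Zfp genes (3.35%) and for 5.94% of protein-coding genes. The other 139 genes had exon and promoter levels less than 0.2 apart. The order of Zfp and protein-coding genes depended on the pair of regions compared. Introns minus promoters had a median of 0.0462 in 223 Zfp genes and of 0.0929 in protein-coding genes, with the intron at least 0.2 higher in 32.7% and 36.8%. Exons minus 5′ UTRs had a median of 0.0229 in 226 Zfp genes and of 0.0398 in protein-coding genes, while 3′ UTRs minus promoters had 0.670 in 59 Zfp genes and 0.440. By library the median difference of exon and promoter was 0.0689 in NC uninduced, 0.0702 in siDNMT1 uninduced, 0.0575 in NC OB and 0.0499 in siDNMT1 OB cells.

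Low promoters did not come with one kind of exon. Of the 168 genes with a promoter below 0.1 and an exon entry, 89 had an exon below 0.1, 39 an exon between 0.1 and 0.5 and 40 an exon of at least 0.5, over a range from 0.00507 to 0.890. The exon level differed with what the exon entry covered. In 60 of the 226 Zfp genes with both entries (26.5%) the exon and the 5′ UTR had identical levels in all 4 libraries, within 1e-09, as they would if all exonic cytosines read lay in the 5′ UTR. Among protein-coding genes this share was 10.3%. This property was noticed after the levels were seen. The median exon level was 0.0280 in these 60 genes, 0.350 in the 166 whose exon and 5′ UTR levels differed and 0.651 in the 49 without a 5′ UTR entry.

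In genes whose entries differed, the contrast between exon and promoter was wider. Among the 161 of them with a promoter entry, the median difference was 0.147 (0.0786 to 0.253), and the exon was at least 0.2 higher in 73 (45.3%), against a median of 0.0447 and 29.4% in protein-coding genes chosen the same way. In the 51 genes with identical entries the median difference was -0.00444, and the exon was at least 0.2 higher in 3. The deposited values do not say which exon a cytosine lies in, so the long finger exon could not be told apart from the others.

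**Figure D2:**
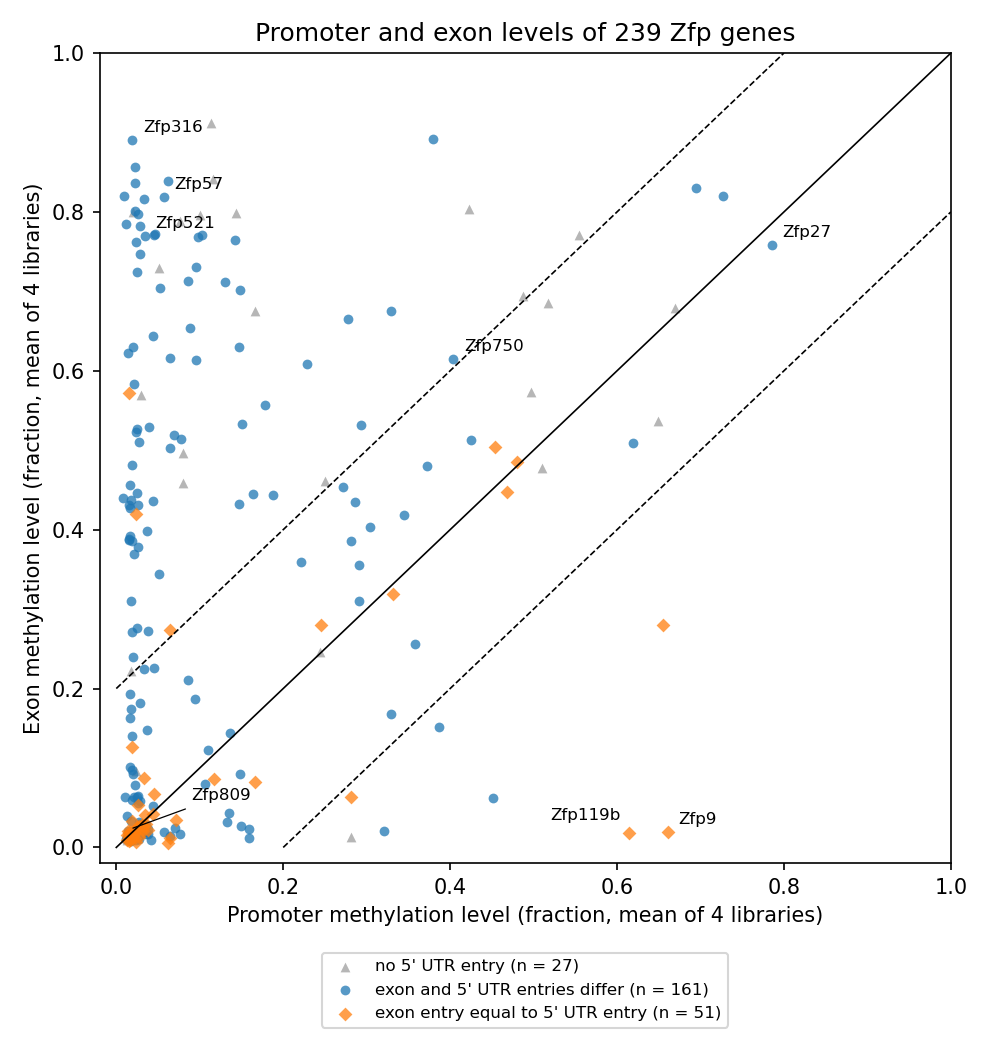
Promoter level (x axis) against exon level (y axis), both fractions and means of 4 libraries, 1 point per Zfp gene with both entries; the solid line marks equal levels and the dashed lines a difference of 0.2, and colours show whether the exon entry equals the 5′ UTR entry. Most points stand along the left edge, 92 genes lie above the upper dashed line and 8 below the lower one, and the genes with identical exon and 5′ UTR entries (orange) gather in the lower left corner.

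The widest contrast was that of Zfp316 (chr5:143249697-143270022, minus strand). Its promoter level was 0.0265 in NC uninduced, 0.0213 in siDNMT1 uninduced, 0.0179 in NC OB and 0.0112 in siDNMT1 OB cells, and its exon level was 0.892, 0.894, 0.889 and 0.884 in the same order. No library's promoter came near any library's exon, and the 3′ UTR (0.889 as a mean) was as high as the exon while the 5′ UTR (0.0151) was as low as the promoter. Zfp444, Zfp775, Zfp691, Zfp647 and Zfp592 followed, with exon minus promoter differences between 0.783 and 0.834. Of these 6 genes, Zfp647 had the most methylated promoter, with 0.105, 0.105, 0.133 and 0.110. Zfp691, whose upstream stretch with 13 CGs is shown above, had a promoter of 0.0126, 0.0100, 0.00798 and 0.00611 and an exon of 0.833, 0.817, 0.817 and 0.813.

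In the opposite direction, Zfp9 (chr6:118461950-118479320, minus strand) had the widest difference. Its promoter level was 0.662, 0.676, 0.654 and 0.650 in NC uninduced, siDNMT1 uninduced, NC OB and siDNMT1 OB cells, and its exon level 0.0209, 0.0176, 0.0197 and 0.0186, equal to its 5′ UTR level. Zfp119b, the gene with no CG in the 250 bases before its start, had a promoter of 0.632, 0.604, 0.648 and 0.573 and an exon, again equal to the 5′ UTR, of 0.0173, 0.0251, 0.0191 and 0.0133. In these 2 genes a methylated upstream region met an unmethylated 5′ UTR in every library.

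Zfp61, Zfp575, Zfp382 and Zfp638 completed the 6 genes with the largest promoter excess, between 0.268 and 0.389. The exon entry of Zfp575 was equal to its 5′ UTR entry. Zfp638 encodes a nuclear protein that acts in adipocyte differentiation and in silencing of retroviral DNA. Its promoter level was 0.310, 0.267, 0.292 and 0.256 and its exon level, equal to its intron level, 0.0102, 0.0163, 0.0135 and 0.0129. The RefSeq start nearest to its GENCODE start lies 47244 bases away.

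The highest promoters reached the level of methylated exons. Zfp383 (chr7:29908223-29916813, plus strand) had 0.822, 0.799, 0.815 and 0.787 in NC uninduced, siDNMT1 uninduced, NC OB and siDNMT1 OB cells. Its neighbour Zfp27 (chr7:29893333-29906572, minus strand) had 0.804, 0.773, 0.797 and 0.767. The exons of Zfp27 had 0.846, 0.794, 0.800 and 0.592, but its 5′ UTR had 0.0580 and its introns 0.0618 as means. Zfp27 and Zfp383 start less than 2 kb apart and run in opposite directions, so promoter windows of 2 kb would overlap. These highest promoter levels may therefore rest in part on the same cytosines, and both are counted among the high promoters. Zfp27 was thus methylated upstream and in its exons and nearly unmethylated at the start.

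Zfp729a, Zfp719, Zfp872 and Zfp827 were the next highest promoters, with means from 0.727 to 0.776. The promoter entry of Zfp872 had the same values as that of a ribosomal protein pseudogene, Rpl15-ps3. ZFP827 is known for recruiting a chromatin remodelling complex to telomeres. Of the 19 promoters with a level of at least 0.5, 7 had a 5′ UTR entry, and 5 of these 5′ UTRs were below 0.1. A methylated promoter and an unmethylated 5′ UTR thus stood side by side in these 5 genes. Of all 226 Zfp 5′ UTRs 190 were below 0.1 (84.1%), and of those of protein-coding genes 68.5%. The low 5′ UTRs are therefore no trait of the genes with high promoters. The promoter and intron entries of Zfp729a had identical levels.

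At the other end, the 6 lowest promoters were those of Zfp786, Zfp691, Zfp91, Zfp458, Zfp326 and Zfp628. ZFP91 is a ubiquitin ligase of the non-canonical NF-κB pathway, and ZFP326 takes part in alternative splicing. Zfp786 had 0.0154, 0, 0.0167 and 0, the lowest mean (0.00801). Their exons did not share the low level: the means were 0.439 for Zfp786, 0.820 for Zfp691 and 0.785 for Zfp628, but 0.0636 for Zfp91, 0.0124 for Zfp458 and 0.0104 for Zfp326.

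Genes with known roles showed the same variety. ZFP57 and ZFP445 are KRAB proteins that keep methylation on imprinted regions after fertilisation. The Zfp57 promoter had 0.0684, 0.0677, 0.0563 and 0.0368 in NC uninduced, siDNMT1 uninduced, NC OB and siDNMT1 OB cells, and its exon 0.820, 0.816, 0.833 and 0.807, with a 5′ UTR mean of 0.488. The Zfp445 promoter had 0.0188, 0.0180, 0.0154 and 0.0143 and its exon 0.394, 0.394, 0.384 and 0.394. Both promoters were low in all libraries and both exons were above them in all libraries, the exon of Zfp57 more so.

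ZFP809, ZFP568, ZFP932 and ZFP819 are KRAB proteins known for silencing retroviral or other sequences. Zfp809, which acts on proviruses that use a proline tRNA primer, had a low promoter (mean 0.0152) and a low exon (0.0225), and so had Zfp568 (0.0130 and 0.00994) and Zfp932 (0.0706 and 0.0241). Zfp819 differed, with a promoter of 0.513, 0.515, 0.430 and 0.461 and an exon of 0.509, 0.510, 0.458 and 0.462. The exon entries of Zfp568 and Zfp819 were equal to their 5′ UTR entries.

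Several Zfp proteins act in mesenchymal fate. ZFP521 regulates the balance of osteoblast and adipocyte differentiation, and its promoter (0.0316, 0.0110, 0.0631 and 0.0328) stood far below its exon (0.764, 0.771, 0.767 and 0.776). ZFP467, which favours adipocytes over osteoblasts, had the most methylated promoter of this group, with 0.300, 0.295, 0.280 and 0.237, and an exon of 0.702, 0.651, 0.668 and 0.641. The Zfp467 levels were lowest in the siDNMT1 OB library for both regions, with differences of -0.0431 and -0.0272 from NC OB, under the threshold of 0.1 used below.

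ZFP384, a brake on bone formation, had a promoter mean of 0.0688 and an exon mean of 0.519, and ZFP219, a partner of SOX9 in cartilage, 0.149 and 0.701. For ZFP516, a factor of brown fat, they were 0.0226 and 0.801. Zfp354c, which encodes a repressor of bone genes, was the exception in this group, since its promoter (0.136) and exon (0.144) were alike.

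In other genes with known roles, promoter and exon were low together. They were Zfp36, which encodes the RNA-binding protein tristetraprolin (means 0.0171 and 0.0128), Zfp143 (0.0182 and 0.0104) and Zfp281 (0.0150 and 0.0158), which encode transcription factors of promoters and of pluripotent cells, the corepressor gene Zfp503 (0.0361 and 0.0164), and Zfp110 (0.0264 and 0.0169), a partner of the p75 neurotrophin receptor. Its relative Zfp369 had 0.0192 and 0.0979. The exon entry of Zfp143 was equal to its 5′ UTR entry. The corepressor gene Zfp703 had a promoter mean of 0.0334 and an exon of 0.267, 0.239, 0.211 and 0.184. Zfp296, a factor of pluripotent cells, was intermediate in both regions (0.497 and 0.573), as was Zfp335 (0.290 and 0.310), needed for neural progenitors.

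Some of the genes with known roles could not be placed on this contrast. Zfp207, a spindle protein gene, and the X-linked Zfp711 had neither entry. Zfp352, expressed in the early embryo, had a promoter level in 3 libraries and no exon level, and Zfp541, a gene of meiotic cells, had no promoter level in siDNMT1 uninduced cells. The Zfp541 promoter was highly methylated where it was read, with 0.767 in NC uninduced, 0.868 in NC OB and 0.933 in siDNMT1 OB cells.

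Promoter levels differed little with the features of the protein, and exon levels more. A letter pattern of the KRAB A-box was found in 209 of the 389 proteins. A promoter was listed for 53.6% of these genes and for 84.4% of the 180 others. Their promoter median was 0.0344, against 0.0373, and their exon median 0.142, against 0.369. Exon minus promoter had a median of 0.00641 in 94 KRAB-pattern genes, of which 29 were at least 0.2, and of 0.110 in 145 others, of which 63 were. The KRAB pattern was present in 39 of the 60 genes with identical exon and 5′ UTR entries, and in 56 of the 166 whose entries differed. Among the 49 genes without a 5′ UTR entry it was present in 23. KRAB-pattern genes and the others thus differed in how often the exon entry equalled the 5′ UTR entry.

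Zinc finger genes with other names were set beside them. Among 284 other protein-coding genes with at least 3 C2H2 patterns, the promoter median was 0.0660, and the exon was at least 0.2 above the promoter in 71 of 180 (39.4%), beside 38.5% of Zfp genes. Among 81 other genes with both a KRAB and a C2H2 pattern, the promoter median was 0.0478, the exon median 0.0377, and 3 of 25 had an exon at least 0.2 above the promoter. None of these differences between groups of genes was tested.

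The number of CpGs upstream did not order Zfp promoters the way it ordered other promoters. In Zfp genes with at most 21 CpGs in the 2 kb upstream, with 22 to 36 and with more, the promoter medians were 0.0339, 0.0453 and 0.0289. In all protein-coding genes of the same 3 classes they were 0.251, 0.175 and 0.0574. The Zfp median was thus lower in each class, and the gap was widest where CpGs were few. In that class 55 of 133 Zfp genes had a promoter entry (41.4%), in the CpG-rich class 115 of 124 (92.7%). A listed CpG island over the start or in the 2 kb upstream was present for 171 genes, with a promoter median of 0.0285, against 0.0456 in the genes without one.

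Position in the genome went with large differences in exon level. With neighbouring starts up to 500 kb apart, 208 of the genes lay in clusters of at least 4. Chromosome 7 held 92 Zfp genes, chromosome 17 held 45 and chromosome 13 held 36. The exon was at least 0.2 above the promoter in 32 of 60 genes on chromosome 7, in 4 of 26 on chromosome 17 and in 0 of 14 on chromosome 13. Promoter medians on these chromosomes were 0.0307, 0.0320 and 0.0337, in that order, and exon medians 0.431, 0.0525 and 0.0151. The difference thus lay in the exon entries, which can equal the 5′ UTR entries, and such entries were not set apart by chromosome. The 3′ UTRs listed had a median of 0.721 on chromosome 7 (18 genes) and of 0.725 on chromosome 13 (2 genes). On chromosome 17 the number listed was 0.

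Clusters differed in the same way. In the cluster from Zfp628 to Zfp580 (chr7:4915217-5053723) the promoter median was 0.0148 and the exon median 0.785, over 5 genes each, with no KRAB pattern in its 6 members. In the cluster from Zfp160 to Zfp13 (chr17:21008903-23599487), where 20 of 23 members carry the KRAB pattern, the medians were 0.0320 and 0.0336 over 18 genes each. The cluster from Zfp84 to Zfp146 (chr7:29768552-30169750), home of Zfp27, Zfp383 and Zfp568, had the most varied promoters, from 0.0130 to 0.806, with medians of 0.156 for promoters and 0.626 for exons. Of its 15 members 11 carry the KRAB pattern, so its exons were high beside a large share of KRAB-pattern genes. Neighbours in this cluster thus spanned almost the whole range of promoter levels.

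In the cluster of 18 KRAB-pattern genes from Zfp990 to Zfp933 (chr4:145510759-147848366), 2 promoters and 0 exons were listed in all 4 libraries. The genes of this cluster have a median of 11 CpGs in the 2 kb upstream, against 27 over the whole family.

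**Figure D3:**
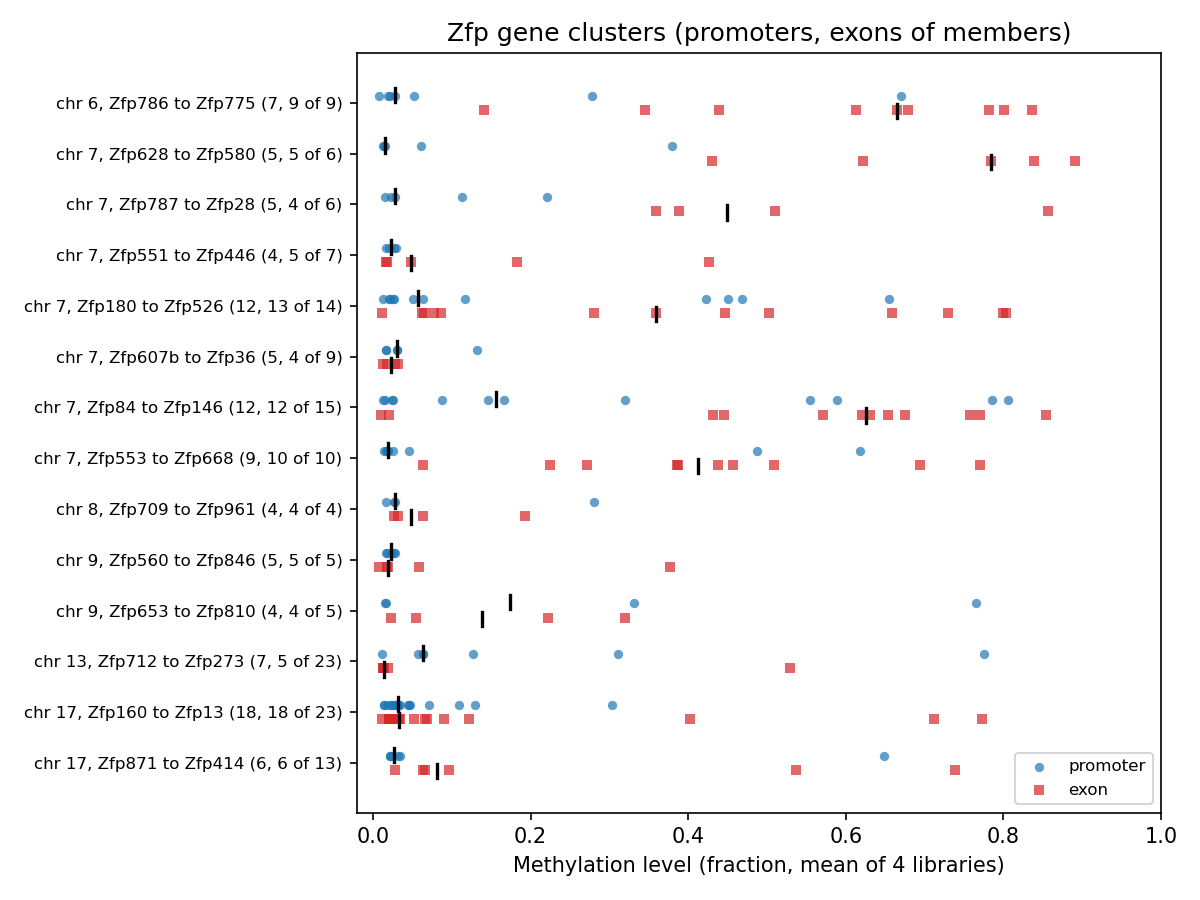
Promoter (blue) and exon (red) levels, fractions and means of 4 libraries (x axis), in the clusters with at least 4 promoter and 4 exon entries (y axis, with the number of promoters and exons listed of all members); each point is a gene and black ticks are medians. Promoters gather near 0 in most clusters, while exons spread widely on chromosome 7 (median 0.785 from Zfp628 to Zfp580) and stay low in the cluster from Zfp160 to Zfp13 on chromosome 17 (0.0336).

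The few X-linked genes had higher promoter levels. Of 8 X-linked Zfp genes, 4 had a promoter entry, with a median of 0.291, and none of these was below 0.1, against a median of 0.0346 in 260 autosomal genes. Chromosome 1, also with 4 promoters, had the next highest median (0.192, with 1 below 0.1). X-linked genes outside the family were not set beside them.

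The second question was what DNMT1 siRNA did to these levels. Before OB induction the typical Zfp promoter had nearly the same level in both libraries. The median difference, siDNMT1 minus NC, was 0.000711 (95% interval over genes -0.000337 to 0.00140), and over all 20152 promoters it was -0.000713. By at least 0.1, 1 of 264 Zfp promoters fell (0.379%, against 0.814% of all promoters) and 4 rose (1.52%, against 0.67%). The exons had a median difference of -0.00121 (-0.00311 to 0.000491, all exons -0.00186), with 2 of 275 that fell (0.727%, against 0.917%) and 1 that rose (0.364%, against 0.721%). Each of these shares rests on 1 to 4 genes. Centring each library on the median of all its regions of the class moved the promoter median to 0.00400 and turned the sign of the exon median, to 0.00155.

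After OB induction the differences leaned down, in Zfp genes as in all genes. The promoter median was -0.00136 (-0.00382 to -0.000396, all promoters -0.00371), with 4 that fell (1.52%, against 1.41%) and 2 that rose (0.758%, against 0.794%). The exon median was -0.00569 (-0.0102 to -0.00334, all exons -0.00690), with 4 that fell (1.45%, against 1.53%) and 0 that rose (against 0.774%). A promoter with an NC level below 0.1 cannot fall by 0.1. Among Zfp promoters with a level of at least 0.1 the median difference was -0.0153 (85 genes), against -0.0148 over all such promoters, and among such exons it was -0.0157 (165 genes), against -0.0154. The same centring turned the direction of both OB medians, to 0.00868 for promoters and 0.00736 for exons. It subtracts the fall of the class median from every region alike, Zfp or not. That median was 0.174 in NC OB and 0.164 in siDNMT1 OB cells for promoters, and 0.348 and 0.334 for exons. The turned sign is therefore no result about Zfp genes in particular.

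With control siRNA in both, 0 Zfp promoters fell from the uninduced to the OB library (1.41% of all promoters) and 3 rose (1.14%, against 0.764%). For exons 2 fell (0.727%, against 1.38%) and 2 rose (0.727%, against 0.799%). With siDNMT1 in both, 1 Zfp promoter fell (0.379%, against 2.34% of all promoters) and 1 rose (0.379%, against 1.04%), and 6 exons fell (2.18%, against 2.57%) and 1 rose (0.364%, against 1.06%). These pairs of libraries differ in OB induction, and they share libraries with the comparisons of siDNMT1 and NC. The labels give 48 h of transfection for all libraries and 3 days of induction for the OB ones. They do not say whether uninduced cells were kept as long, so induction cannot be told apart from time in culture. Over the 4 libraries the range of a Zfp promoter had a median of 0.0164, against 0.0275 for all promoters, and of 0.0422 against 0.0452 for those with a level of at least 0.1.

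The difference after induction minus that before had a median of -0.00146 over Zfp promoters (-0.00300 to -0.0000837) and of -0.00292 over all promoters. For exons it was -0.00470 (-0.00663 to -0.00223) and -0.00458.

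**Figure D4:**
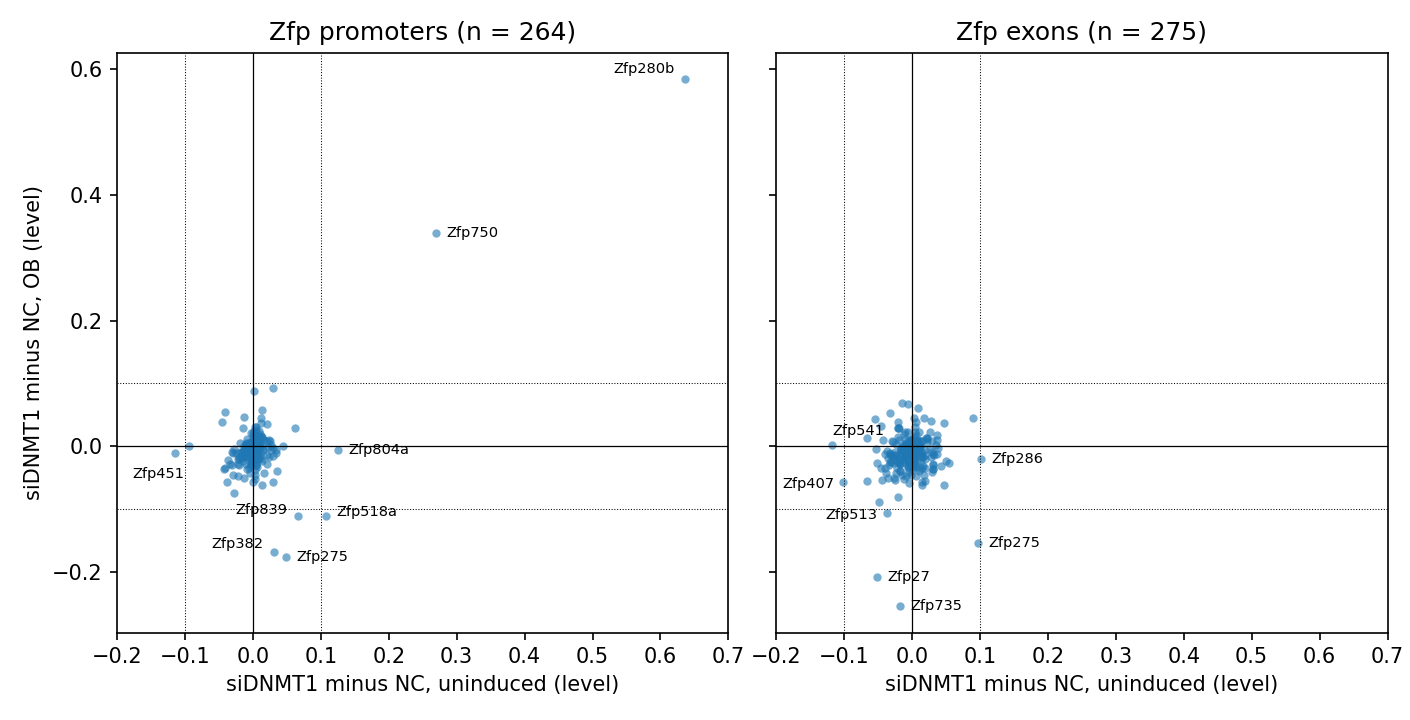
Difference in level, siDNMT1 minus NC, in uninduced (x axis) and OB cells (y axis), 1 point per Zfp promoter (left, n = 264) or exon (right, n = 275); dotted lines mark 0.1 in either direction and named genes passed it in at least 1 comparison. Most points crowd around 0, and the promoters of Zfp280b and Zfp750 alone lie past 0.1 in the same direction in both comparisons.

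Promoters of 2 genes rose by at least 0.1 in both comparisons (0.109% of all promoters did), and 0 fell in both (0.134% of all promoters did). Zfp280b (chr10:76032650-76043234, plus strand) had a promoter level of 0 in NC uninduced and 0.0476 in NC OB cells, and of 0.636 in siDNMT1 uninduced and 0.632 in siDNMT1 OB cells. The siDNMT1 libraries lay close together, far above both NC libraries. Its other regions did not follow: the 5′ UTR was between 0.00346 and 0.0283, the introns between 0.0231 and 0.0313 and the exons between 0.650 and 0.691 in the 4 libraries. With 50 CGs in the 2 kb upstream, 19 of them in the 250 bases printed above, the region is CG-rich, and how many of these CGs were read is unknown. The zero of the NC uninduced library is therefore a listed value without a known depth, and so are the levels of the other libraries.

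Zfp750 (chr11:121510978-121519333, minus strand) encodes a factor of epidermal differentiation. Its promoter level was 0.242 in NC uninduced and 0.261 in NC OB cells, and 0.512 in siDNMT1 uninduced and 0.600 in siDNMT1 OB cells. Its introns went the other way, with 0.485 and 0.391 in NC and 0.341 and 0 in siDNMT1 cells, while its exons differed less (0.652, 0.625, 0.615 and 0.565) and its 5′ UTR was high in all libraries (0.925 as a mean). The depth behind these levels is unknown too.

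Zfp518a changed in opposite directions, as 0.248% of all promoters did. Its promoter level was 0.167 in both NC libraries, 0.274 in siDNMT1 uninduced and 0.0556 in siDNMT1 OB cells. The promoter entry of a microRNA gene, Mir8092, had the same values in every library. Exon and 5′ UTR of Zfp518a had identical levels, between 0.0655 and 0.0980.

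The other changed promoters passed 0.1 in 1 comparison. Zfp451, which encodes a SUMO ligase, was lower in siDNMT1 uninduced cells (0.0654) than in NC uninduced (0.180), NC OB (0.151) and siDNMT1 OB cells (0.141). Zfp804a, a gene known from psychiatric genetics, was higher in siDNMT1 uninduced cells (0.357) than in NC uninduced (0.232), NC OB (0.271) and siDNMT1 OB cells (0.265). In both genes 1 library stood apart from the other 3.

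Zfp275, Zfp382 and Zfp839 fell in OB cells, and in each the NC OB library was the high one. The X-linked Zfp275 had a promoter level of 0.136 in NC uninduced, 0.184 in siDNMT1 uninduced, 0.418 in NC OB and 0.241 in siDNMT1 OB cells. Zfp382 had 0.302, 0.333, 0.407 and 0.239, and Zfp839 0.182, 0.249, 0.297 and 0.186. These are also the 3 promoters that rose between the NC libraries.

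Some of the 3 largest differences per direction did not reach 0.1. Zfp365, known from neuronal development, had 0.0938 in NC uninduced cells and 0 in the other 3 libraries. The Zfp61 promoter had 0.418 in NC OB and 0.511 in siDNMT1 OB cells, and that of Zfp827 0.739 in NC uninduced and 0.694 in siDNMT1 uninduced cells.

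Exons changed in 7 genes, none of them in both comparisons. Over all exons 0.127% fell and 0.0882% rose in both, so a count of 0 among 275 is near that share. Before induction Zfp541 was lower in the siDNMT1 library (0.179) than in NC uninduced (0.296), NC OB (0.342) and siDNMT1 OB cells (0.344), and Zfp407 had 0.530, 0.428, 0.468 and 0.411. Zfp286 rose from 0.465 to 0.566, and was at 0.561 and 0.540 in NC OB and siDNMT1 OB cells, so the NC uninduced library was the low one.

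In OB cells Zfp735 fell from 0.372 to 0.118, with 0.256 and 0.238 in the uninduced libraries. Zfp27 fell from 0.800 to 0.592, with 0.846 and 0.794 before induction, so its siDNMT1 OB exon was the lowest of the 4 while its promoter stayed at 0.767. Zfp275 fell from 0.395 to 0.241 and Zfp513 from 0.216 to 0.110, with 0.307 and 0.271 in the uninduced NC and siDNMT1 libraries. Zfp275, whose exon and 5′ UTR entries are identical, was the single gene with promoter and exon changed, among the 14 with either.

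No Zfp exon rose by 0.1 in OB cells. The largest positive differences were those of Zfp174 (0.0775 in NC OB and 0.146 in siDNMT1 OB cells), Zfp689 (0.471 and 0.538) and Zfp677 (0.0152 and 0.0769). The exon entries of Zfp174 and Zfp677 were equal to their 5′ UTR entries. Before induction the exons of Zfp275 (0.194 in NC and 0.291 in siDNMT1 cells) and Zfp791 (0.712 and 0.802) stayed just under 0.1, and the exon of Zfp608 had 0.624 and 0.558.

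**Figure D5:**
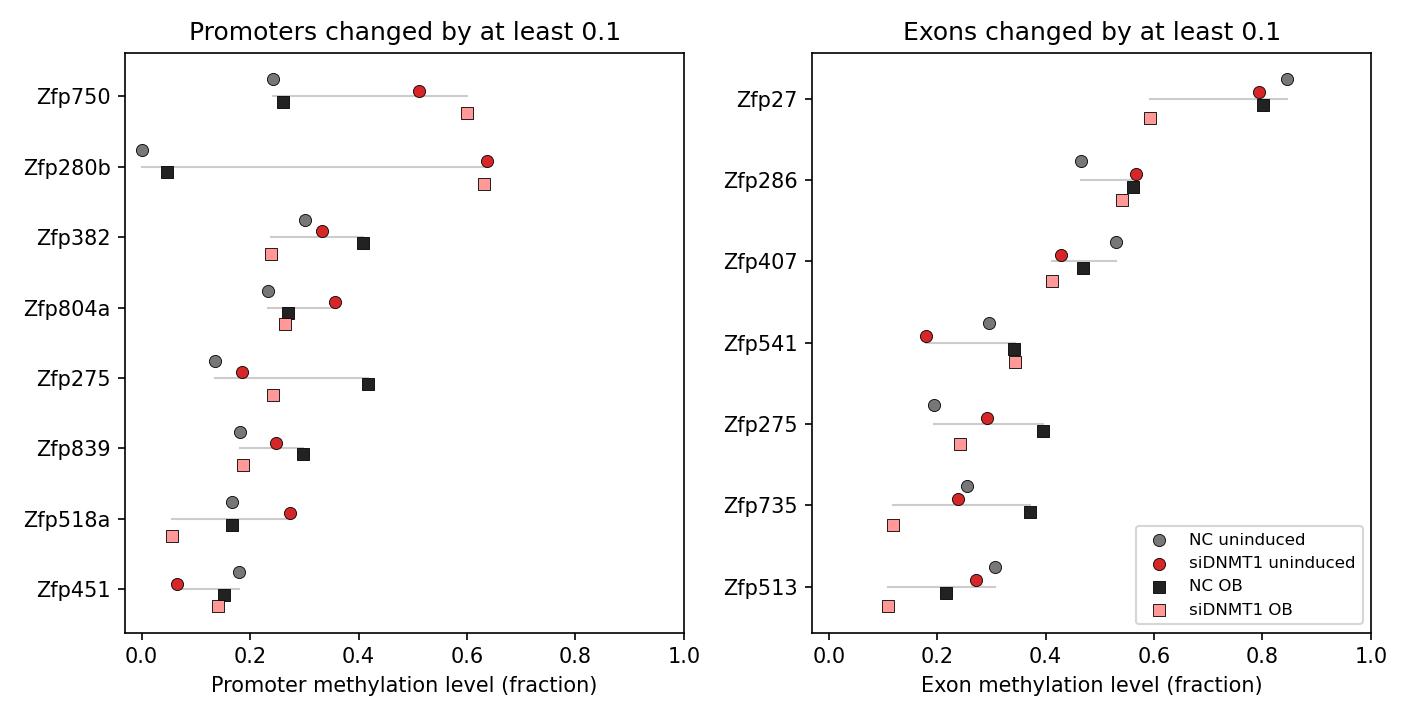
Methylation level (fraction, x axis) in each of the 4 libraries for the 8 Zfp promoters (left) and 7 Zfp exons (right) that differed by at least 0.1 between siDNMT1 and NC in at least 1 comparison; circles are uninduced and squares OB libraries, grey and black NC, red and pink siDNMT1. In Zfp280b and Zfp750 both siDNMT1 libraries lie above both NC libraries, while in Zfp451, Zfp804a, Zfp275, Zfp541 and Zfp27 a single library stands apart.

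The partners of KRAB zinc finger proteins were too few for a count of changed regions to say much. Of 23 genes for corepressors, HP1 proteins, histone methyltransferases, DNA methyltransferases and other silencing factors, among them Trim28, Setdb1, Uhrf1 and Dnmt1, 20 had a promoter and 21 an exon entry. By at least 0.1, 0 promoters and 0 exons fell or rose in either comparison. Over all promoters 1.48% changed before and 2.20% after OB induction, and over all exons 1.64% and 2.30%. At these shares, less than 1 of the listed regions would be past 0.1 in each class and comparison taken alone. Their promoter levels had a median of 0.0602, and their promoter differences ranged from -0.0432 to 0.0143 before and from -0.0347 to 0.0401 after OB induction.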

How the data were processed

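Reduced representation bisulfite sequencing of 4 C3H10T1/2 libraries was analysed, 1 per condition, with groups taken from the sample labels. The library protocol names sonication and no restriction enzyme. Per the submitters' processing notes, reads were handled with CASAVA, Trimmomatic (version 0.36) and Bismark (version 0.16.3) on mm10. The authors deposited 1 fraction per gene and region class, the share of CpG cytosines read as methylated. The promoter window, the coverage minimum, the weighting of cytosines and the gene annotation behind the classes are not given in the sources used here. No read counts accompany the fractions, so the depth per library and region, and the precision of a single level, are unknown.

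Ensembl identifiers were matched to GENCODE vM21 on GRCm38, with positions counted from 1. Levels, differences within a gene and differences between libraries were computed for regions listed in every library, and a change was counted from 0.1. Medians have a 95% interval from order statistics, which treats genes as independent and leaves out the variation of cultures. No test was made: an additive model of siRNA and induction would leave 1 residual degree of freedom and would take the siRNA difference as equal before and after induction. Upstream CpGs were counted in the 2 kb before the GENCODE gene start. C2H2 fingers and the KRAB A-box were counted as letter patterns in the translated longest coding sequence, and the patterns miss degenerate domains. Printed sequences and their CG counts are from RefSeq (GRCm38.p6).

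The members, gene lists, named genes and alternatives were chosen with earlier results of these data known. Named were the 6 highest and lowest promoters, the 6 largest contrasts in each direction, the genes changed in both comparisons (at most 5 per direction), the 3 that moved most per direction and comparison, and genes with a known role. Zfp264, on that role list, is not among the genes of the rule. Zfp513, Zfp518a and the clusters named were added after their values were seen. Alternatives covered the member rule, autosomes, mean for median, other region classes, the library, centring, the regions listed and the threshold. Functions were tested on simulated data. The tools were pyfaidx 0.9.0.4, matplotlib 3.10.9, scipy 1.17.1, numpy 2.4.6 and pandas 2.3.3 under Python 3.11.15. DMRs, repeats and single cytosines were not analysed here.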

Additional observations from a re-analysis of the deposited data

Results flagged for a closer look

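The promoter of Zfp518a is given here because siDNMT1 and NC differed by at least 0.1 in opposite directions before and after OB induction. The difference after induction minus that before was -0.218. Each condition was 1 library, so the difference was not tested.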

How the results depend on the processing

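Of 51 alternatives over 10 results, 31 left the value within the interval of the main value, or the count within 1.5 times. Centring each library on the median of all regions of its class reversed the median siDNMT1 minus NC difference in OB cells, to 0.00868 for promoters and 0.00736 for exons, and in uninduced cells moved it to 0.00400 for promoters and, with a change of sign, to 0.00155 for exons. Centring subtracts the fall of the median level of all regions of the class, from Zfp and other regions alike. Why the other values moved was not tested. With members of a mean level of at least 0.1, the OB median moved to -0.0153 for promoters and -0.0157 for exons, and the uninduced exon median to -0.00466. Means in place of medians gave 0.132 for the promoter level, 0.191 for exon minus promoter, 0.00408 for uninduced promoters and -0.0110 for OB exons. With 3′ UTRs in place of exons the contrast was 0.670, and with 5′ UTRs in place of promoters 0.0229. At a threshold of 0.05, 8 promoters and 12 exons changed before and 16 and 21 after induction, and at 0.2, 2 promoters and 0 exons before and 2 and 2 after. The 2 promoters at 0.2 rose in both comparisons. Another coverage minimum could not be tried on fractions alone, and leaving out a library would remove a condition. No paired analysis was possible because replicate numbers pair no samples with 1 library per condition. The siDNMT1 and NC libraries of the same induction state are compared as differences within that state, and a model with induction as a block was not run.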
